A study of Mus musculus with 4 samples.

Results

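N2 is the name that the authors' deposited annotation gives to 254 of the 964 neutrophils, and of the 4440 CD45+ (blood-derived) cells, of 3 mouse tumours. Members were taken by that name alone, and they are described against the 144 N1a, 166 N1b, 220 N3 and 176 N5 neutrophils of the same annotation. The tumours were grown from MC38 cells, a mouse colon carcinoma line, for 7 days in the flank of IL-12p40-IRES-EYFP mice, whose transgene reports the p40 chain of interleukin-12 and was carried by all animals. Agonist anti-CD40 antibody was injected into the peritoneum of 2 of the 3 mice at 5 mg/kg (anti-CD40 tumours 1 and 2), and 1 mouse was untreated. Tumours were taken 2 days later, and no source used here gives the animals' ages. CD45+ cells were sorted and read by inDrops, a droplet method in which each captured RNA molecule carries a unique molecular identifier (UMI). N2 counted 196 cells and 210710 UMIs in anti-CD40 tumour 1, 44 cells and 32989 UMIs in anti-CD40 tumour 2, and 14 cells and 7408 UMIs in the untreated tumour.

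Neutrophils are short-lived phagocytes that leave the bone marrow with granules and with calprotectin (S100a8 and S100a9) already made, and that change their transcripts once in tissue. Type I interferons act through a receptor of Ifnar1 and Ifnar2 chains and a complex of transcription factors, which binds the interferon-stimulated response element in the promoters of antiviral genes. Rsad2 (viperin), an antiviral enzyme, is such a gene, whereas Il1b, which encodes interleukin-1 beta, is mainly known as a target of NF-kB in activated myeloid cells.

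The promoters of both N2 markers and of 4 interferon-stimulated genes high in N2 are shown, because they differ in that element. Each window runs from 250 bases before to 50 bases after the RefSeq start (GRCm38.p6, 5′ to 3′ on the gene's strand), and capitals mark matches, on either strand, to the element searched: GAAA, any 2 bases, GAAA.
Rsad2: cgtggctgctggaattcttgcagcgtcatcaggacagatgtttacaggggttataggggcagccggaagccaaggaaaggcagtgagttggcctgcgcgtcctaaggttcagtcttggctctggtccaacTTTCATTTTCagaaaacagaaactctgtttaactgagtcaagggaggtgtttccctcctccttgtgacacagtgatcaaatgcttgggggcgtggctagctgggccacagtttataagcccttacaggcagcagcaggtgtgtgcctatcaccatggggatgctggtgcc
Il1b: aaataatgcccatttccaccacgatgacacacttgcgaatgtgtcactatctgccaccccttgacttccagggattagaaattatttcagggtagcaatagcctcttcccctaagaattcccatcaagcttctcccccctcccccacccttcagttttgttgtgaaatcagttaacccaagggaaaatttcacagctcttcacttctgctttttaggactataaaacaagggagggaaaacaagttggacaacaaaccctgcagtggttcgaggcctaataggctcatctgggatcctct
Cxcl10: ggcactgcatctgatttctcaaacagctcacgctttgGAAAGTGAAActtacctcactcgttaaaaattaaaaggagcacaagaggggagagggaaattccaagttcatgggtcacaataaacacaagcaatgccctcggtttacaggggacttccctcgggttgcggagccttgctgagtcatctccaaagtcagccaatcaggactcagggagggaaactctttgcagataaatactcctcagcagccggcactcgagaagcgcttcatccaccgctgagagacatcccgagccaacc
Ifit3: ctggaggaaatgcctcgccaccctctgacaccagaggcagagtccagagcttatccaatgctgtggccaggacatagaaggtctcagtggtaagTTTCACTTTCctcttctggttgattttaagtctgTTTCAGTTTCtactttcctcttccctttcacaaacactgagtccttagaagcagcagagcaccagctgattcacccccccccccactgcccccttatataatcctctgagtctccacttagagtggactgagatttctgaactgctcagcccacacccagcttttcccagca
Isg15: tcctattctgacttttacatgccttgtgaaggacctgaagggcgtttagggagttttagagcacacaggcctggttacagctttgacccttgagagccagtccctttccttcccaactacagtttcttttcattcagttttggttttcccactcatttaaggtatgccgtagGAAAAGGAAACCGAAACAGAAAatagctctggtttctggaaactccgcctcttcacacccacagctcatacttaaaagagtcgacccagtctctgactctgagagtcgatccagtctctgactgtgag
Gbp2: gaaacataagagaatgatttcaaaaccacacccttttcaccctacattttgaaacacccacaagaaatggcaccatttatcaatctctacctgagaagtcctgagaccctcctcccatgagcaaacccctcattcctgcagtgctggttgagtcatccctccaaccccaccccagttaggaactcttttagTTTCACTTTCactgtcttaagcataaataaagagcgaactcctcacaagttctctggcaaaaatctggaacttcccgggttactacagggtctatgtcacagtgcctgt
The windows lie at chr12:26456403-26456702 on the minus strand for Rsad2, chr2:129371090-129371389 on the minus strand for Il1b, chr5:92348840-92349139 on the minus strand for Cxcl10, chr19:34583279-34583578 on the plus strand for Ifit3, chr4:156200769-156201068 on the minus strand for Isg15 and chr3:142620413-142620712 on the plus strand for Gbp2. The Rsad2, Cxcl10 and Gbp2 windows held 1 match each, the Ifit3 window held 2, the Isg15 window held 3 that overlap, and the Il1b window held none. Of all 27025 genes with a window in the table, 3.99% held a match, against 7 of the 13 matched genes among the 15 highest in N2 and 14 of 29 matched interferon-stimulated effectors (48.3%). None of the 18 matched genes of the mature circulating neutrophil list held one. A match is a description of the letters, not a binding site.

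Depth differed between tumours. N2 cells held a median of 1048 UMIs in anti-CD40 tumour 1, 566 in anti-CD40 tumour 2 and 494 in the untreated tumour. The tumours were spread over 12 libraries in 4 sequencing pools. Pools 1 and 2 held anti-CD40 tumour 1 with the untreated tumour and pools 3 and 4 held anti-CD40 tumour 2 alone, and no cell barcode occurred in more than 1 library. Levels are UMIs per 1000000 UMIs (CPM) of the summed cells, 3 values given in a row are those of anti-CD40 tumour 1, anti-CD40 tumour 2 and the untreated tumour, and intervals are exact 95% intervals that cover counting error only. All 14 neutrophil identity genes were detected in N2, where they made up 11.7% and 11.2% of UMIs in anti-CD40 tumours 1 and 2 and 6.82% in the untreated tumour, and markers of other cells were near 0. T cell markers gave 1 UMI in anti-CD40 tumour 1 and 0 in the other tumours, NK cell, tumour epithelial, and red cell and platelet markers gave 0 in all 3, and B cell markers gave 20, 3 and 1 UMIs with 5 of 6 genes at 0. The 13 macrophage and dendritic cell markers made up 0.0380% and 0.0515% of N2 UMIs in anti-CD40 tumours 1 and 2, with 6 and 4 of them at 0, and 0.0405% in the untreated tumour, with 10 at 0. N2 cells in which markers of another blood cell type reached 3 UMIs numbered 9 of 196, 1 of 44 and 0 of 14 in the same order of tumours. Cd40, the antibody's target, gave 1 UMI in all N2 cells of anti-CD40 tumour 1 and 0 in the other tumours.

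The shares of neutrophils that were N2 had overlapping intervals in the 3 tumours, while the shares of CD45+ cells did not. N2 made up 28.0% of the 700 neutrophils of anti-CD40 tumour 1 (exact Clopper-Pearson interval 24.7 to 31.5), 20.5% of the 215 of anti-CD40 tumour 2 (15.3 to 26.5) and 28.6% of the 49 of the untreated tumour (16.6 to 43.3). Over libraries the share ranged between 23.3% and 30.5%, 17.0% and 22.6%, and 20% and 36.4% in those tumours. The untreated range overlapped both treated ranges, and the treated ranges did not overlap each other. Of CD45+ cells, N2 was 15.99% (14.0 to 18.2) of 1226 in anti-CD40 tumour 1, 2.42% (1.77 to 3.24) of 1815 in anti-CD40 tumour 2 and 1.00% (0.548 to 1.67) of 1399 in the untreated tumour. Fewer N2 cells and more other cells cannot be told apart in these shares. No test was run on shares, since 1 untreated against 2 treated animals cannot give a small exact p. N1a stood at 18.3% and 7.44% of neutrophils in anti-CD40 tumours 1 and 2 and 0 of 49 in the untreated tumour, with an exact upper bound of 7.25%.

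**Figure D1:**
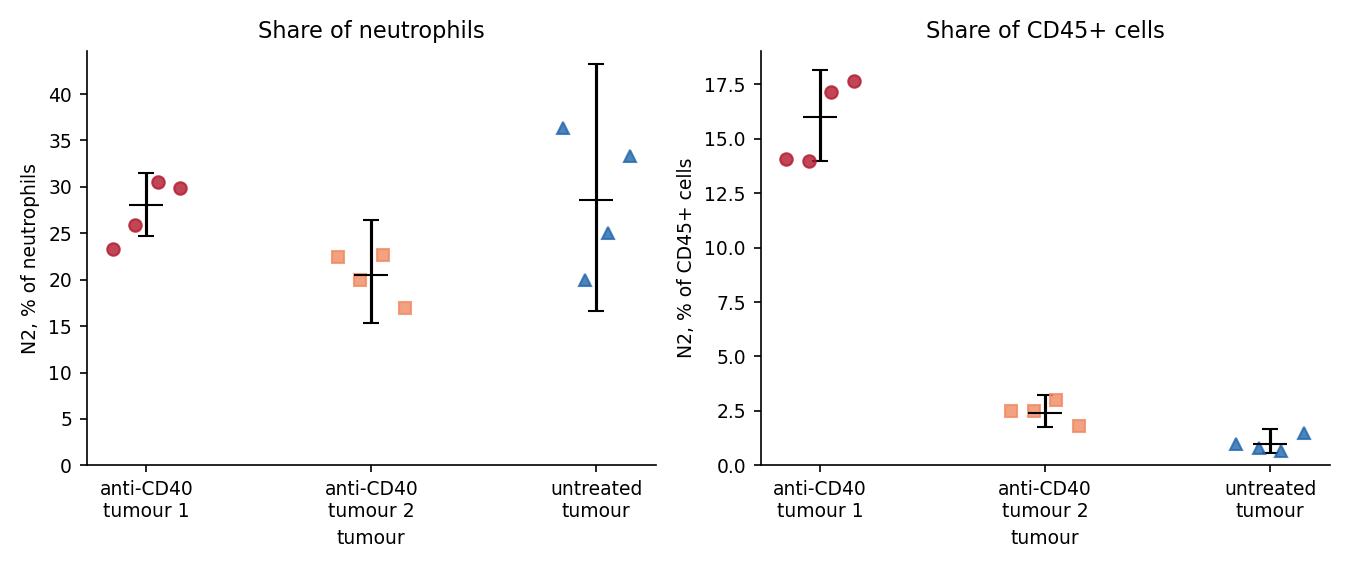
N2 cells as a percent of neutrophils (left) and of CD45+ cells (right) in each tumour. Coloured points are libraries, black bars the tumour's share with its exact 95% interval; shares of neutrophils overlap between tumours (20.5% to 28.6%), whereas N2 is 15.99%, 2.42% and 1.00% of CD45+ cells.

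Both markers given for N2 were also abundant in other subsets. Rsad2, on chromosome 12 (26442746 to 26456452, minus strand, GRCm38), stood at 4575 CPM (interval 4291 to 4873) in N2 of anti-CD40 tumour 1, 5032 in anti-CD40 tumour 2 and 7424 in the untreated tumour. In N5 it stood at 7271, 4314 and 1935 CPM, and in N3 at 3595, 3004 and 4781 CPM. N1a and N1b held less, with 696 and 1731 CPM in N1a and 582 and 241 CPM in N1b of the treated tumours. Rsad2 was thus highest in N5 in anti-CD40 tumour 1 and highest in N2 in the other tumours. Il1b, on chromosome 2 (129364570 to 129371139, minus strand), stood at 20355 and 24978 CPM in treated N2 and 25108 CPM in untreated N2, close to 19594 and 29335 CPM in treated N3 and 27094 CPM in untreated N3, and lower in N5 at 7627, 10306 and 6287 CPM. Its exons overlap an antisense gene, Il1bos, and the use of strand in counting is not given in the sources used here. Cells with a UMI of each transcript, unthinned, were 75.5%, 77.3% and 78.6% of N2 cells, against 60.3%, 48.6% and 60% of N3 cells and 57.3%, 40.9% and 14.3% of N5 cells. In N1a and N1b the share was at most 37.8%. Median UMIs per cell were 772, 666.5 and 465 in N3 and 765, 612 and 384.5 in N5.

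Shares of cells move with depth, so cells were also thinned to 300 UMIs, which left out 5 and 3 shallower N2 cells of anti-CD40 tumours 1 and 2 and 0 of the untreated tumour. Rsad2 was then found in 51.8% of 191 N2 cells of anti-CD40 tumour 1 (interval 44.5 to 59.1), 51.2% of 41 of anti-CD40 tumour 2 (35.1 to 67.1) and 64.3% of 14 of the untreated tumour (35.1 to 87.2), against 75.5%, 77.3% and 85.7% before thinning. In thinned T cells the share was 0 of 47, 0 of 127 and 0 of 124 cells (exact upper bounds 7.55%, 2.86% and 2.93%). Before thinning the T cell share was 0%, 2.96% and 1.33%, with medians of 778, 651 and 475.5 UMIs per cell. Thinned N5 cells reached 54.5%, 42.9% and 30%, and thinned N3 cells 45.0%, 35.8% and 63.6%, so the intervals of N2 overlap those of N3 and N5 for this gene in each tumour.

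**Figure D2:**
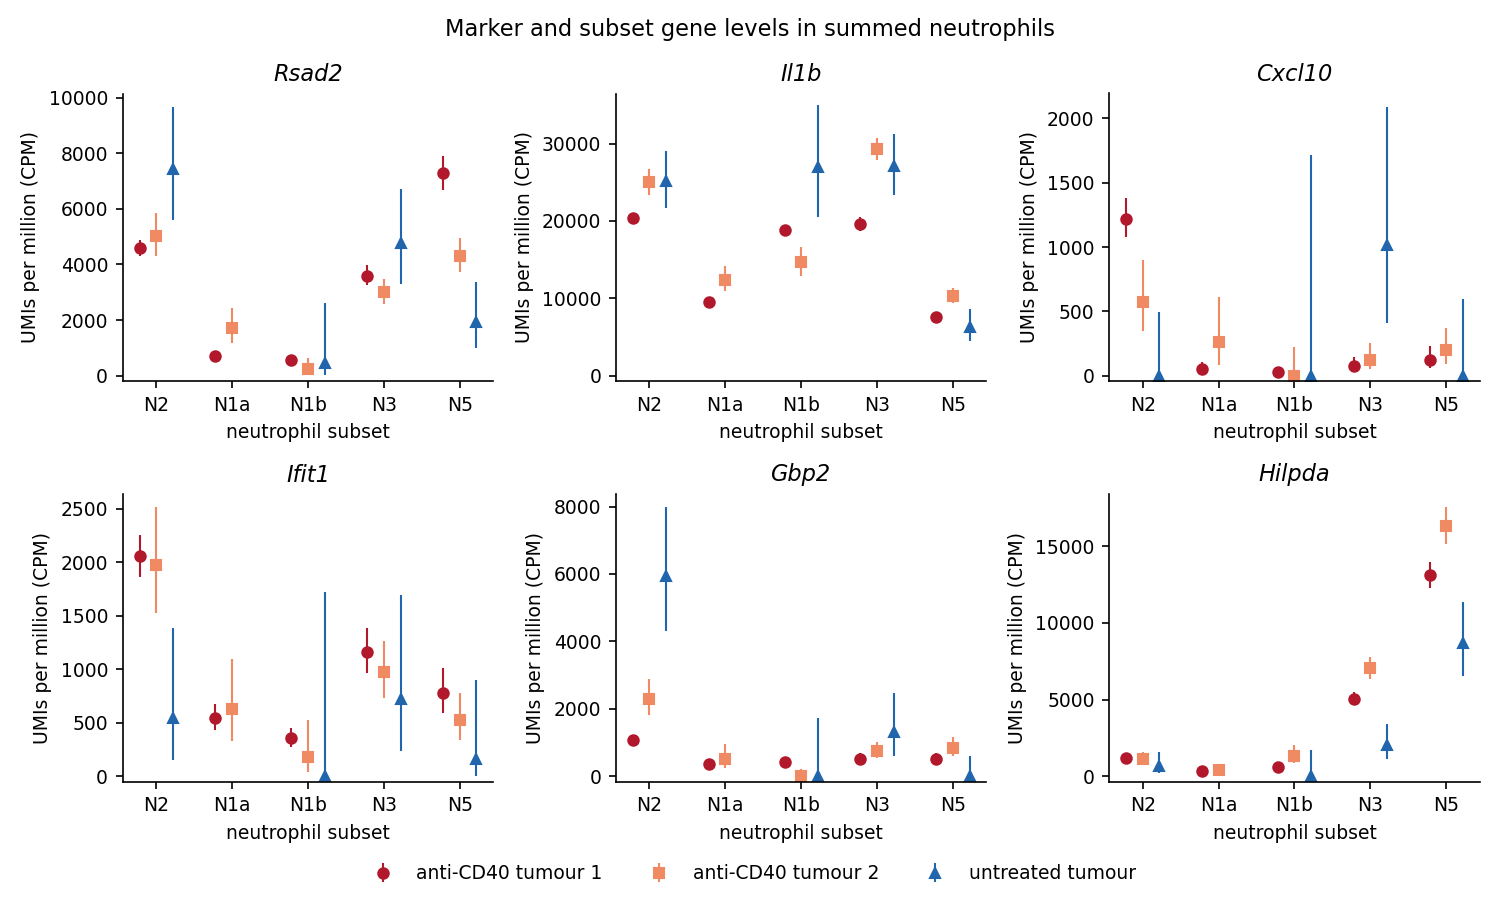
Levels of 6 genes (CPM, linear axes) in the summed cells of each neutrophil subset and tumour; bars are exact 95% Poisson intervals, and N1a has no untreated cells. Rsad2 is shared with N3 and N5 and Il1b with N1b and N3, Cxcl10 and Ifit1 stand highest in N2 of both treated tumours, Gbp2 is highest in untreated N2 (5940 CPM), and Hilpda is highest in N5.

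N2 held more interferon-stimulated transcripts than the mean of the 4 other subsets, in a list of effectors that includes the marker Rsad2. The measure is the log2 ratio of the N2 level to the mean level of N1a, N1b, N3 and N5, taken in each treated tumour and averaged, with N2 sums under 3 UMIs set to 3. All genes were used to draw the subsets, so these ratios are a description and carry no test. Of the 36 interferon-stimulated effectors 34 were in the files and 26 had at least 30 neutrophil UMIs in each treated tumour; 25 of the 26 were higher in N2 in both treated tumours and 0 were lower in both. Of all 790 genes over that minimum, 38.6% were higher in both. N2 was the highest of the 5 subsets in both tumours for 15 of the 26, against 8.48% of all genes. The list's median log2 ratio was 0.98, and that of all 790 genes was 0.00.

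Ifit1, whose protein binds foreign RNA, stood at 2055 and 1970 CPM in N2 of anti-CD40 tumours 1 and 2 and at 540 CPM (4 UMIs) in untreated N2. In the treated tumours the next subset was N3, with 1161 and 972 CPM. Untreated N3 held 724 CPM, above untreated N2. Ifit3 and Ifit3b, near-identical neighbours on chromosome 19 whose reads may be split between them, had log2 ratios of 1.67 and 1.44. Ifit2 had a log2 ratio of 1.33, with 626 and 637 CPM in treated N2 and 0 UMIs in untreated N2. Isg15, a ubiquitin-like modifier secreted and conjugated under interferon, stood at 4827 and 6245 CPM in treated N2 and 7694 CPM in untreated N2 against 3220 and 4913 CPM in treated N3 and 3332 CPM in untreated N3. These genes were highest in N2 in both treated tumours. Slfn4, a myeloid schlafen gene of a family with close paralogs, was not highest in N2 throughout: 4461 and 4729 CPM in treated N2 and 2970 CPM in untreated N2 against 3348 and 5193 CPM in N1a. Ifitm3, a membrane protein that hinders virus entry, was close in N2 and N1a of the treated tumours, at 3479 and 3153 CPM in N2 and 3348 and 4197 CPM in N1a.

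Cxcl10, a chemokine for T and NK cells that bear Cxcr3, had the highest log2 ratio of the 790 genes, with 4.12 and 1.98 in anti-CD40 tumours 1 and 2. It stood at 1220 CPM (257 UMIs) in N2 of anti-CD40 tumour 1, 576 CPM (19 UMIs) in anti-CD40 tumour 2 and 0 UMIs in untreated N2. The other subsets of the treated tumours lay between 0 and 262 CPM, and untreated N3 held 1014 CPM from 7 UMIs of 1 cell. Its UMIs were unevenly spread: 38 of 196 N2 cells of anti-CD40 tumour 1 held any, 1 cell held 50, and in anti-CD40 tumour 2 6 of 44 cells held 19 with 11 in 1 cell. After thinning, 13.6% (9.09 to 19.3) and 12.2% (4.08 to 26.2) of treated N2 cells and 0 of 14 untreated N2 cells held a UMI, against 0 of 47 and 2.36% (0.490 to 6.75) of thinned T cells of the treated tumours and 3.23% (0.886 to 8.05) of those of the untreated tumour. Exons of Cxcl10 overlap Art3 on the other strand.

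The list of 8 type I and type III interferon ligands gave 0 UMIs in all neutrophils. Irf7, which amplifies the response, stood at 1196 and 1031 CPM in treated N2 and 540 CPM in untreated N2, with a log2 ratio of 1.13. The receptor chain Ifnar2 gave 28, 4 and 0 UMIs. The sensors Zbp1 and Ddx58, which recognise viral nucleic acid, had log2 ratios of 0.84 and 1.16, and the kinase Jak1 was level at -0.06. Among the brakes, Socs3 was level at 0.11, and Socs1 had too few UMIs for a ratio.

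Genes best known from interferon gamma were mostly above the mean of the other subsets in N2, and fewer were highest there. Of 17 genes 8 passed the minimum, 7 were higher in N2 in both treated tumours and 0 were lower in both, with a median log2 ratio of 1.01. Of all 790 genes over the minimum, 38.6% were higher in both and 37.7% were lower in both. N2 was the highest subset in both treated tumours for 3 of the 8, against 8.48% of all genes. All 17 summed to 5733 and 7730 CPM in treated N2 and 18089 CPM in untreated N2, against 5830 and 6493 CPM in treated N5 and 1935 CPM in untreated N5, so N5 was level with N2 in anti-CD40 tumour 1, where the intervals overlap. Gbp2, a GTPase that attacks vacuoles of microbes, stood at 1082 and 2304 CPM in treated N2 and 5940 CPM in untreated N2, against 0 to 850 CPM in the other treated subsets. Irf1, a transcription factor of the pathway, stood at 679 and 576 CPM in treated N2 and 2160 CPM in untreated N2 and had a log2 ratio of 1.05. Cd274, which encodes PD-L1, was the other gene, with log2 ratios of -0.99 and 0.13 in anti-CD40 tumours 1 and 2: N5 held 3100, 3530 and 967 CPM, N3 1816, 1749 and 2753 CPM, while N2 held 660, 1455 and 1350 CPM. Gbp2 belongs to both interferon lists, and guanylate-binding proteins have close paralogs among which reads may be split.

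The 15 genes with the highest ratios included Cxcl10, Ly6i, Ifi209, Gbp2, Ifit3, Tnfaip2, Ifit1, Ifit3b, Mpeg1, Fgl2, Chil1, Slfn5, Ctss and Ifit2, and N2 was the highest subset for these 14 in both treated tumours. Ifi209, of the interferon-inducible IFI200 family, and Slfn5, a schlafen gene, had log2 ratios of 1.72 and 1.37. Ly6i, a surface protein with close Ly6 paralogs, stood at 1372 and 1273 CPM in treated N2 and 540 CPM in untreated N2, against at most 966 CPM in the other treated subsets. Mpeg1 (perforin-2), a pore-forming protein of phagocytes, stood at 1262 and 1091 CPM in treated N2 and 540 CPM in untreated N2. Ctss, a lysosomal protease, stood at 645 and 849 CPM in treated N2 and 1485 CPM in untreated N2, and at 2238, 4527 and 4497 CPM in the monocytes, macrophages and dendritic cells of the same tumours. Tnfaip2, a target of tumour necrosis factor, stood at 1319 and 2122 CPM in treated N2 and 3915 CPM in untreated N2, with untreated N3 at 3043 CPM.

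**Figure D3:**
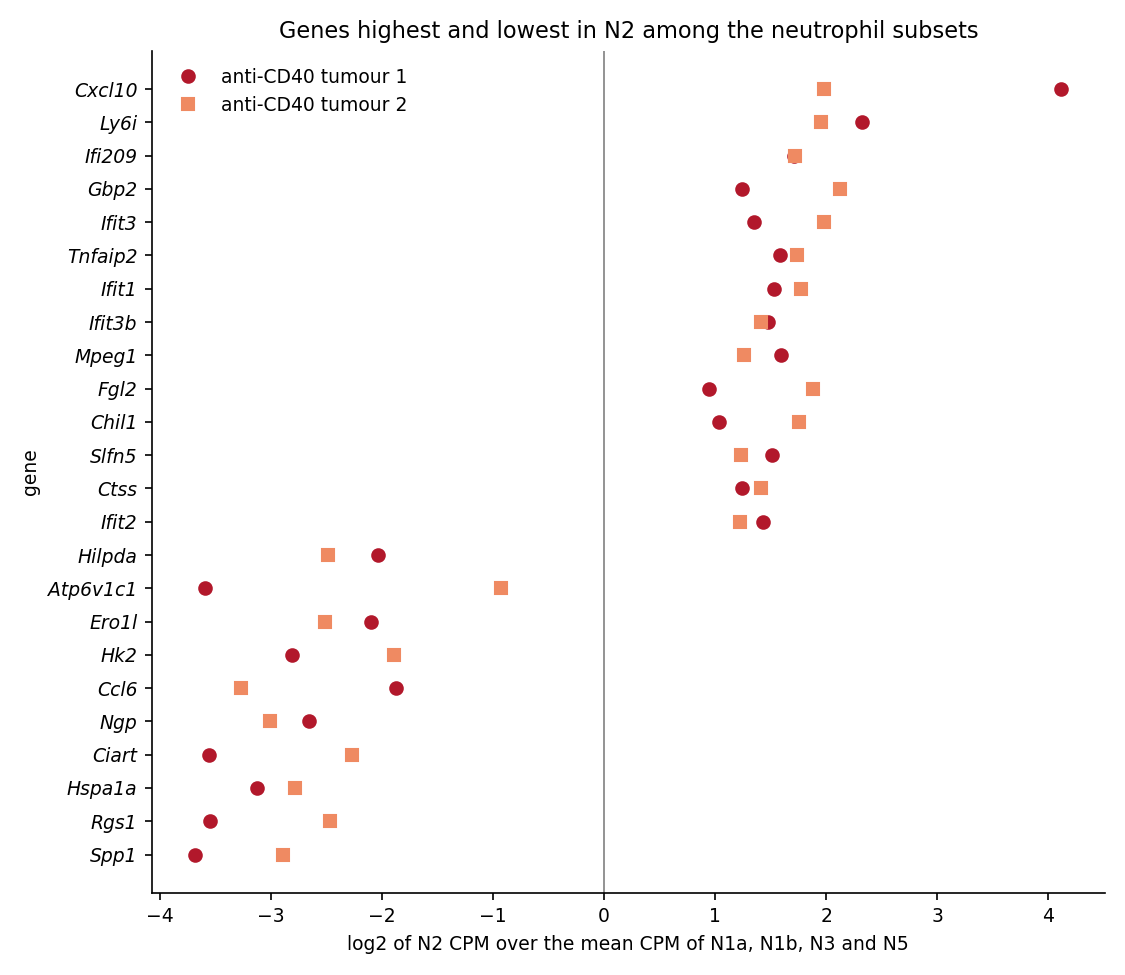
Log2 ratio of the N2 level to the mean level of N1a, N1b, N3 and N5 in each treated tumour, for 14 of the 15 highest genes and the 10 lowest with the same sign in both. Cxcl10 averages 3.05 and Spp1 -3.29; the choice of genes fixes the sign.

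For 9 of the 10 genes with the lowest ratios, N3 and N5 both stood above N2 in each treated tumour. Spp1 (osteopontin) stood at 123 and 273 CPM in treated N2 and 135 CPM in untreated N2 against 4019 and 3660 CPM in treated N5 and 3385 CPM in untreated N5. Hilpda, which a lack of oxygen induces and which binds lipid droplets, stood at 1163 and 1122 CPM in treated N2 and 675 CPM in untreated N2 against 13101 and 16319 CPM in treated N5 and 8705 CPM in untreated N5. Hk2, a hexokinase, and Ero1l, an oxidase of the endoplasmic reticulum, had log2 ratios of -2.35 and -2.30. Ngp, a granule protein made in the marrow, was the exception and stood at 498 and 212 CPM in treated N2 and 0 CPM in untreated N2 against 11600 and 5613 CPM in N1a of the treated tumours, and at 0 UMIs in N5. Rgs1, Hspa1a, Ciart, Ccl6 and Atp6v1c1 completed the set, with log2 ratios between -3.01 and -2.26; Hspa1a and Atp6v1c1 were at 0 UMIs in N2 of anti-CD40 tumour 2.

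As lists, glycolysis and hypoxia genes were lower in N2 in both treated tumours for 15 of 16 genes, with a median log2 ratio of -0.90, where 37.7% of all genes were lower in both. Ldha, lactate dehydrogenase, stood at 408 and 576 CPM in treated N2 and 540 CPM in untreated N2 against 3635 and 3203 CPM in treated N5 and 3385 CPM in untreated N5, and 577 and 525 CPM in N1a of the treated tumours. As a share of a cell's UMIs the list had a median of 0.383%, 0.352% and 0.528% in N2 against 3.02%, 2.95% and 2.17% in N5, while N1a held 0.374% and 0.331% and N1b 0.363% and 0.588% in the treated tumours. SiglecF-high tumour neutrophil genes, a set described in long-lived neutrophils of lung tumours, were lower in both for 7 of 10 and higher for 1, with a median of -1.29. Mature circulating neutrophil genes were lower in both for 9 of 15 and higher for 3, with a median of -0.24, and N2 lay between subsets. Mmp8, a granule collagenase, stood at 2734 and 1879 CPM in treated N2 and 540 CPM (4 UMIs) in untreated N2, below N1a (9572 and 12380 CPM) and N1b (4657 and 5071 CPM) and above N3 (1189 and 477 CPM) and N5 (439 and 218 CPM). Chil1, a chitinase-like granule protein, was highest in N2, with 978 and 728 CPM in the treated tumours and 0 UMIs in the untreated tumour.

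Genes of the interleukin-1 family and of the chemokine list were split in N2, while more NF-kB targets were higher than lower. In the interleukin-1 family 4 of 7 genes were higher in both treated tumours and 3 were lower, against 38.6% and 37.7% of all genes, and splits near these shares are no result about a list. Il1r2, a decoy receptor, stood at 2999 and 4092 CPM in treated N2 and 2430 CPM in untreated N2, with 2031 and 4153 CPM in treated N3 and 1449 CPM in untreated N3. Il1rn, the receptor antagonist, stood at 2762 and 2273 CPM in treated N2 and 3240 CPM in untreated N2, below 6256 and 4466 CPM in treated N5 and 7738 CPM in untreated N5. Of 10 chemokine and receptor genes 4 were higher in both and 6 were lower. Ccl3, a chemokine for monocytes and lymphocytes, stood at 1039 and 2940 CPM in treated N2 and 270 CPM in untreated N2 against 16160 and 17474 CPM in treated N5 and 7899 CPM in untreated N5. Cxcl2, which attracts neutrophils, stood at 20944 and 29646 CPM in treated N2 and 17819 CPM in untreated N2, between N1a (10102 and 11541 CPM) and N3 (39684, 52502 and 35497 CPM). Cxcr2, its receptor, was held by N2 at 2226, 1849 and 1620 CPM and by N5 at 412, 523 and 484 CPM. Of 13 NF-kB targets 8 were higher in both and 2 were lower, with a median log2 ratio of 0.45. N2 was the highest subset in both treated tumours for 3 of the 13, against 8.48% of all genes. Dissociation stress genes were split 5 and 5 of 12, and of 7 mitochondrial transcripts 1 was higher and 2 were lower.

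Cells within N2 varied over a wide range. Interferon-stimulated effectors made up a median of 3.60% of a cell's UMIs in N2 of anti-CD40 tumour 1 (0.481% to 15.7% over cells), 4.12% in anti-CD40 tumour 2 (1.58% to 13.0%) and 5.36% in the untreated tumour (1.51% to 9.81%). In N3 the medians were 2.25%, 2.02% and 2.15%. Mature circulating neutrophil genes made up a median of 10.3% in N2 of anti-CD40 tumour 1 (0.446% to 22.8%), 6.99% in anti-CD40 tumour 2 (0.178% to 16.4%) and 0.840% in the untreated tumour (0.180% to 9.42%). The lowest N2 cells of anti-CD40 tumour 1 lay below its N5 median (1.55%) and the highest above its N1a median (21.5%). Across N2 cells the share of interferon-stimulated effectors went with that of interferon gamma genes, which have Gbp2 in common and come from the same libraries (Pearson's r of 0.45 and Spearman's rho of 0.36 over 196 cells of anti-CD40 tumour 1, r of 0.46 and rho of 0.48 over 44 cells of anti-CD40 tumour 2). The effectors' share also had r of 0.33 and 0.14, and rho of 0.21 and 0.18, with that of glycolysis and hypoxia genes. With the share of mature neutrophil genes the effectors' share had r of -0.04 and -0.49, and rho of 0.10 and -0.47. With UMIs per cell the effectors' share had r of 0.06 and -0.23, and the mature neutrophil genes' share had r of 0.06 and 0.43.

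**Figure D4:**
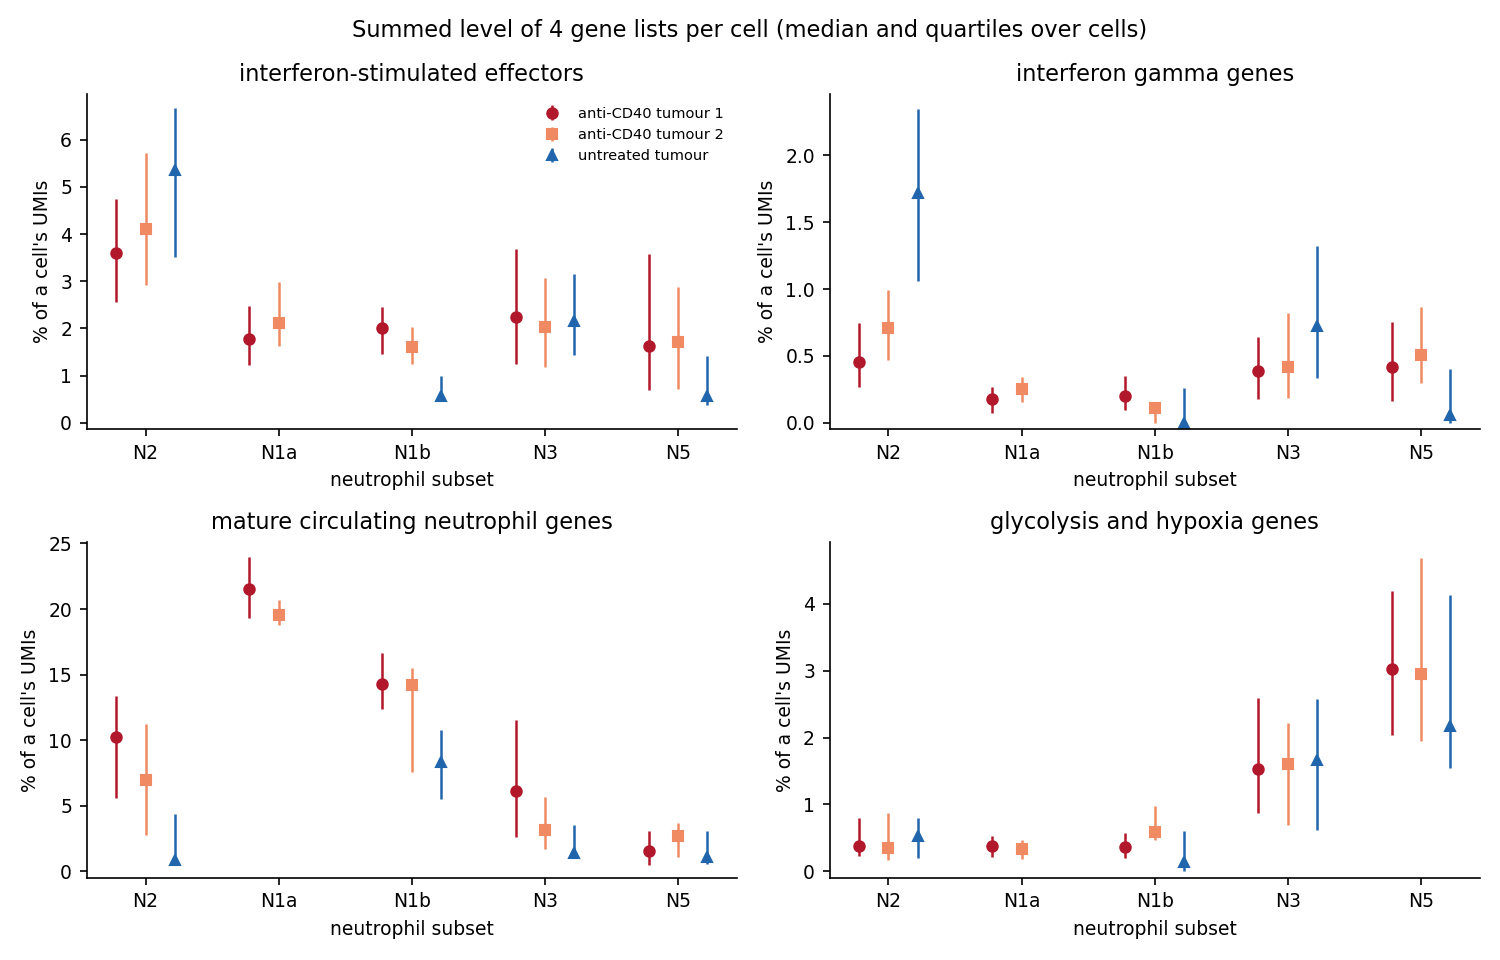
Percent of a cell's UMIs from 4 gene lists, as the median (point) and quartiles (bars) over the cells of each subset and tumour. N2 has the highest medians for interferon-stimulated effectors (3.60%, 4.12% and 5.36%), lies between N1b and N3 for mature circulating neutrophil genes in the treated tumours, and is near N1a and N1b for glycolysis and hypoxia genes.

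Treated N2 was then compared with untreated N2, which asks which genes of these cells differed 2 days after the antibody. In treated N2 granule and calprotectin genes such as Lcn2 and S100a8 rose, and the interferon-inducible GTPase genes Gbp2, Igtp and Ifi47 fell. Neither N2 marker passed. Rsad2 gave a difference under its error (log2 -0.31 ± 0.40 SE, adjusted p = 0.648), as did Il1b (log2 0.18 ± 0.34, adjusted p = 0.767). UMI sums of the 3 tumours were compared with edgeR's quasi-likelihood test with Benjamini-Hochberg adjustment. Of 765 genes tested 67 passed (8.76%), 45 higher (5.88%) and 22 lower (2.88%). All of it rests on 14 untreated cells of 1 animal, 7 in pool 1 with 3938 UMIs and 7 in pool 2 with 3470 UMIs. With plain library size in place of TMM scaling 15 genes were higher and 27 lower, and the median log2 change of all genes tested moved to -0.23, against 0.13. Without pool 2 there were 0 calls (104 genes at an unadjusted p under 0.05), so that each gene named here lost its call there; without pool 1 there were 18, without pool 4 23, and DESeq2 called 9, all higher. Of the 22 lower genes 13, among them Gsn, Gbp5, Socs1, Rab35 and Spag9, passed the filter on low values through the untreated sum alone and so had to differ, and of the 45 higher genes 27 lay under the filter's level of 303 CPM in untreated N2, so the filter favoured genes that differ.

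Of 20 mature circulating neutrophil genes 15 were tested, and 14 of them had a change above 0, against 415 of all 765 genes tested. The 14 of 15 with a change above 0 became 13 with plain library size, and the median log2 fold change was 1.99 with genes at 0 untreated UMIs set to their bound, against 0.00 for all genes tested in the same way. S100a8 stood at 26586 and 22341 CPM in treated N2 and 7694 CPM (57 UMIs in 8 of 14 cells) in untreated N2, which is 1.99 ± 0.39 on the log2 scale (adjusted p = 0.000101). S100a9, its partner in calprotectin, stood at 41726 and 37255 CPM in treated N2 and 15524 CPM in untreated N2, with 1.67 ± 0.36 (adjusted p = 0.000506). Both treated tumours lay above the untreated tumour for each. The untreated S100a8 level was uneven over libraries, at 15014 and 0 CPM in pool 1 and 6856 and 4900 CPM in pool 2. Of untreated S100a8 UMIs, 38 came from 3 cells of pool 1 and 19 from 5 cells of pool 2. Of untreated S100a9 UMIs, 76 came from 3 cells of pool 1 and 39 from 4 cells of pool 2. Lcn2, which binds bacterial siderophores, stood at 5999 and 4547 CPM in treated N2 and 135 CPM (1 UMI) in untreated N2, a ratio of 43.0 with a counting interval of 7.70 to 1699 (adjusted p = 2.94e-08). Wfdc21, a secreted whey acidic protein family member, stood at 2121 and 1667 CPM in treated N2 and 0 UMIs in untreated N2, at least 4.12-fold higher in the lower treated tumour against a floor of 3 UMIs per tumour. Retnlg, a resistin-like protein, stood at 5752 and 4214 CPM in treated N2 and 1215 CPM in untreated N2, and its 9 untreated UMIs came from 1 cell. Ifitm6, of a family with close paralogs, had 2 untreated UMIs and a ratio of 9.51 (2.62 to 78.7). Chil1, Lrg1 and Mmp8 were the other members called higher. Lcn2, Wfdc21, Ifitm6, Chil1 and Lrg1 lay under the filter's level of 303 CPM in untreated N2. These genes were tested only for their treated level, so the filter favoured a difference.

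The same transcripts were found outside neutrophils. In T cells S100a8 stood at 554 and 252 CPM in treated tumours and 13.1 CPM in the untreated tumour, and Lcn2 at 46.2 and 46.7 CPM in treated tumours and 0 in the untreated tumour. The part of free RNA in the N2 difference was not tested. Outside the list, Lyz2 (lysozyme, with the paralog Lyz1) stood at 4281 and 3729 CPM in treated N2 and 405 CPM (3 UMIs) in untreated N2, a ratio of 10.4 (3.54 to 50.4). Thbs1 (thrombospondin), a matrix protein that activates TGF-beta, stood at 5747 and 5426 CPM in treated N2 and 1215 CPM (9 UMIs) in untreated N2 (log2 2.53 ± 0.54, adjusted p = 0.000456). Of 10 chemokine and receptor genes 8 changed above 0 and 2 below, against 415 and 350 of all 765 genes tested. Ccl3 and Ccl4 were called higher, and both lost the call with plain library size.

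The interferon lists did not move as 1 group. Of 28 interferon-stimulated effectors tested, 17 changed above 0 and 11 below, against 415 and 350 of all 765 genes tested. With plain library size 15 effectors changed above 0 and 13 below. Cxcl10, Ifit1 and Ifit2 were called higher and Gbp2 and Ifi47 lower in treated N2. Cxcl10 and Ifit2, at 0 UMIs in untreated N2, were tested only for their treated level. Of 10 interferon gamma genes tested, 2 changed above 0 and 8 below, against 415 and 350 of all 765 genes tested. Their median log2 fold change was -1.25, and it was -1.62 with plain library size and -0.27 without pool 2. Gbp2, Gbp5, Igtp and Psmb8 were called lower, and Gbp5 was tested only for its untreated level. Gbp2 stood at 1082 and 2304 CPM in treated N2 and 5940 CPM (44 UMIs in 12 of 14 cells) in untreated N2 (log2 -1.55 ± 0.44, adjusted p = 0.0135). Its untreated level was uneven over libraries, at 1976 and 2843 CPM in pool 1 and 10774 and 9800 CPM in pool 2, and the log2 ratio to anti-CD40 tumour 1 was -1.30 within pool 1 and -3.10 within pool 2. Over the alternatives run, the log2 change of Gbp2 ranged between -2.17 and -0.13. That of Igtp ranged between -2.28 and -1.09 and that of Ifi47 between -2.42 and -0.40. Gbp2 had 9 untreated UMIs in pool 1 and 35 in pool 2, and Ifi47 had 4 and 15. Gsn (gelsolin), which severs actin filaments, had the lowest p of the lower genes and was tested only for its untreated level, at 299 and 152 CPM in treated N2 and 2160 CPM (16 UMIs in 7 cells) in untreated N2 (log2 -2.71 ± 0.55, adjusted p = 0.000218). Gadd45b, a stress gene, stood at 517 and 1940 CPM in treated N2 and 4860 CPM in untreated N2 (log2 -1.81 ± 0.49, adjusted p = 0.0135). Rab35 and Spag9, which were tested for their untreated level alone too, had 5 and 10 UMIs in untreated N2. Fgl2, a prothrombinase-like protein, stood at 437 and 818 CPM in treated N2 and 3105 CPM in untreated N2 (-2.12 ± 0.50, adjusted p = 0.00225), and 21 of its 23 untreated UMIs came from pool 2. The sign of Fgl2 turned without pool 2, to 0.52 (adjusted p = 0.815). Socs1, a brake on cytokine receptors that was likewise tested only for its untreated level, stood at 128 and 90.9 CPM in treated N2 and 1350 CPM (10 UMIs in 6 cells) in untreated N2 (-3.17 ± 0.80, adjusted p = 0.00583), and 9 of its 10 untreated UMIs came from pool 1. Exons of Gbp2, Ifi47, Igtp and Thbs1 overlap those of Mir6381, Olfr56, Irgm2 and Gm29233, so that reads may be shared. Cxcl10, at 0 in untreated N2, was at least 1.42-fold higher in the lower treated tumour.

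The mitochondrial share, a measure of RNA quality, differed alongside these calls. The 13 mitochondrial transcripts made up 0.260% and 0.361% of UMIs in treated N2 and 1.01% in untreated N2. All 8 tested were below 0, against 350 of all 765 genes tested, with a median log2 fold change of -1.83. Of these, mt-Atp6 and mt-Nd4 were called lower. Dissociation stress genes made up 3.28% and 4.19% in treated N2 and 4.10% in untreated N2, and of the 10 tested 6 changed above 0 and 4 below. The part of RNA quality in the calls was not tested. With cells thinned to 300 UMIs 10 genes were called, of which 8 were among the 67. Of 7 interleukin-1 family genes 3 changed above 0 and 4 below, and of 10 glycolysis and hypoxia genes 6 and 4. Of 15 NF-kB genes 9 changed above 0 and 6 below. Over all 765 genes tested these counts were 415 and 350, and splits near these shares are no result about a list. Cd14, an NF-kB list gene and a receptor for bacterial lipopolysaccharide, was called higher, a call lost with plain library size.

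**Figure D5:**
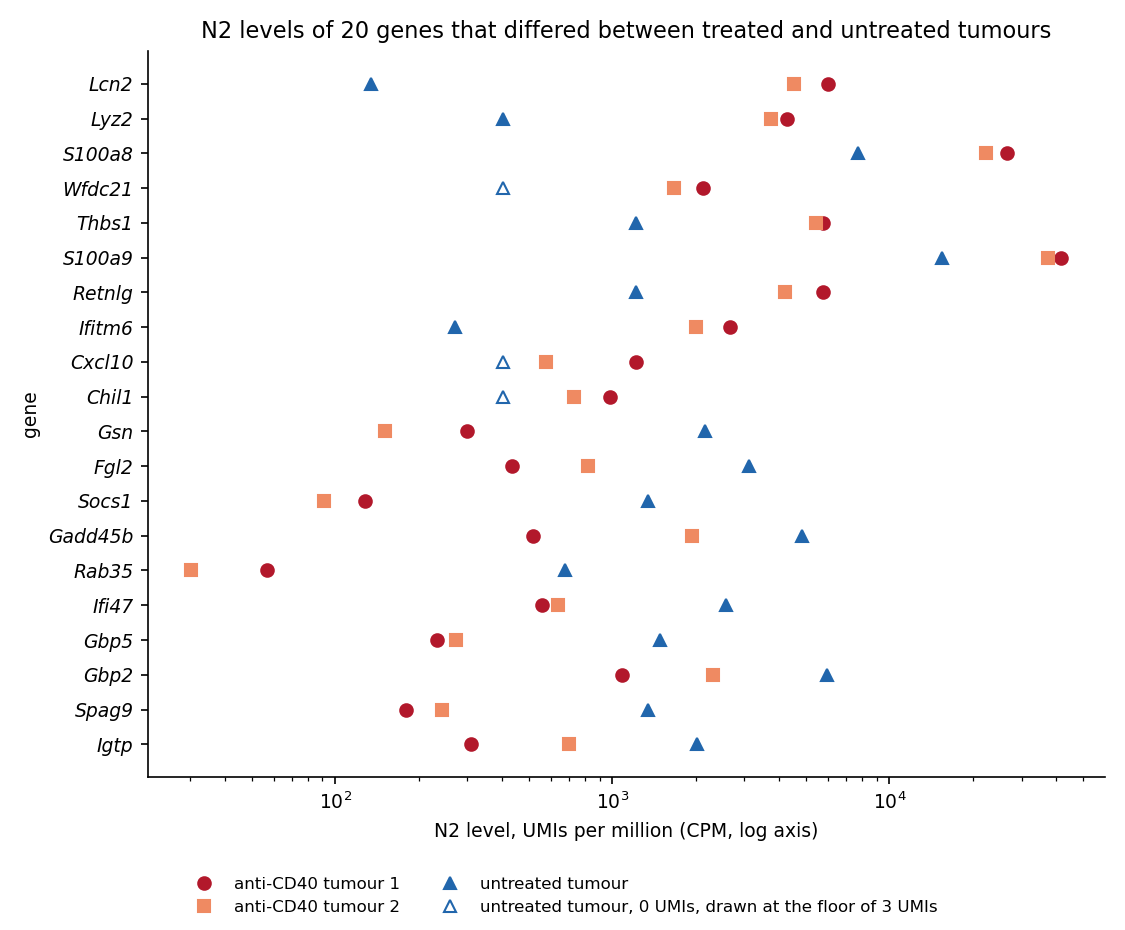
N2 levels (CPM, log axis) in both treated tumours and the untreated tumour for the 10 higher and 10 lower genes with the lowest p; open triangles stand for 0 UMIs and are drawn at the floor of 3 UMIs (405 CPM). Both treated tumours lie on the same side of the untreated tumour for all 20, which the choice of genes favours.

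Whether treatment acted differently in N2 than in N3 or N5 was tested as an interaction in 9 sums (N2, N3 and N5 of the 3 tumours). Of 1709 genes, 0 passed against N3 and 0 against N5 by edgeR (0% each), with 118 and 130 at an unadjusted p under 0.05. The lowest p against N3 was that of Cxcl10 (adjusted p = 0.662), which stood at 1220 and 576 CPM in treated N2 and 0 CPM in untreated N2 and 74.9 and 124 CPM in treated N3 and 1014 CPM in untreated N3. Marcks, Cd33, Gsn and G0s2 followed and did not pass (adjusted p = 0.662 for each). Against N5 the lowest was that of Gbp2 (adjusted p = 0.218), at 1082 and 2304 CPM in treated N2 and 5940 CPM in untreated N2 and 508 and 850 CPM in treated N5 and 0 CPM in untreated N5. Lyz2, Ptgs2 and Marcks did not pass (adjusted p = 0.218 for each), nor did Cdkn2d (adjusted p = 0.364). Without pool 1 there were 3 calls against N3 and 1 against N5, and without pool 4 there were 2 and 6. With all pools, calls against N3 and N5 were 1 and 4 with no filter beyond 1 UMI, 1 and 4 without cells that carry markers of another type, 0 and 8 with cells thinned to 300 UMIs, and 0 and 0 with plain library size.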

How the data were processed

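CD45+ cells of 3 MC38 tumours (2 anti-CD40, 1 untreated) were read by inDrops, per the labels' protocols. The deposited values are raw UMI counts per cell and gene, which the authors did not normalise; bcl2fastq, STAR and GRCm38 are named in the submitters' processing notes, and their versions, the counter, the use of strand, cell filters and doublet treatment are not stated in any source used here. The other deposited table gives each cell's pool, library, animal, condition, major type and neutrophil subset. All deposited cells were kept without doublet calling; leaving out cells with 3 or more UMIs of another type's markers is an alternative. Members and the 22 gene lists were chosen with earlier results of these data known.

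UMIs were summed per tumour and subset. N2 treatment effects and interactions with N3 and N5 were fitted with edgeR 4.0.16 in R 4.3.3 (TMM, filterByExpr, robust quasi-likelihood F test), adjusted by Benjamini-Hochberg over all genes tested at a threshold of 0.05; DESeq2 1.42.0 was an alternative for the treatment effect. Standard errors come from the F statistic. The treatment fit has 1 residual degree of freedom and prior degrees of freedom of at least 190.2, and the interaction fit, which keeps the tumour as a block, has 2 and at least 10.92, so p-values rest on a variance shared over genes and the 1 untreated tumour is taken to vary as the treated tumours do. The 3 tumours are 3 animals; libraries and pools are technical parts of them. Subsets were compared without a test. A count of 0 was read as up to 3 UMIs per tumour and subset. Named genes are the markers, up to 6 members of each list by N2 level, the 15 highest and 10 lowest N2 ratios, up to 10 genes per direction of a treatment test, up to 5 with the lowest p where fewer pass, and Cd40; list members outside this rule (Ifnar2, Lrg1, Mmp8, Psmb8) were named after their values were seen. Of the genes this rule names, 1 is not reported here. Tests were run on simulated counts drawn with the same spread for all genes and tumours. Such counts cannot check the reliance on 1 untreated animal. Coordinates are from GENCODE vM21 (GRCm38), promoters from RefSeq (GRCm38.p6).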

Additional observations from a re-analysis of the deposited data

How the results depend on the processing

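The count of 67 treatment calls in N2 was 42 with plain library size, 20 with no filter beyond 1 UMI, 10 with cells thinned to 300 UMIs and 9 with DESeq2, ranged between 0 and 96 when a pool was left out, and was 73 without cells that carry markers of another type. All 67 kept their direction in each treated tumour alone and within pools 1 and 2, which share the UMIs that chose the genes. The log2 change of Fgl2 ranged between -2.88 and 0.52 without a pool, positive without pool 2, the only sign among the 20 named genes that turned under the alternatives run. Interaction calls against N3 were 1 with no filter and 1 without second-type cells, and ranged between 0 and 3 without a pool; against N5 they were 4, 4 and, when thinned, 8, and ranged between 0 and 6. The N2 ratio of Il1b (0.57) was 0.49 with UMIs pooled over the treated tumours, 0.44 with the 4 subsets pooled and 0.44 to 0.66 without a pool. The mature neutrophil list's median (-0.24) was -0.025 with the 4 subsets pooled and -0.42 to -0.11 without a pool. The glycolysis and hypoxia median (-0.90) was -0.65 thinned, -0.85 without second-type cells and -1.03 to -0.78 without a pool. The causes were not tested. The ratios of Rsad2 and the interferon lists moved by less than the standard deviation of their 2 treated tumours in all alternatives run. The N2 shares stayed within their exact intervals. That deviation is wide for Rsad2 (log2 ratios of 0.59 and 1.12) and narrow for Il1b (0.55 and 0.58). It therefore does not rank these genes by how stable they are. No paired analysis was possible because the sample numbers count sequencing pools and all untreated cells are of 1 animal, so that pools 1 and 2 each set the same treated animal against the same untreated one without replication. Depth limits the untreated side most: 14 cells with 7408 UMIs, where 1 UMI is worth 135 CPM.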
